A study of Rattus norvegicus with 6 samples.

Results

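The genes described here are those that activate, inactivate and read thyroid hormone: the deiodinase genes Dio1, Dio2 and Dio3, the thyroid hormone receptor genes Thra and Thrb, and the retinoid X receptor genes Rxra, Rxrb and Rxrg. Every probe set annotated to exactly 1 of these 8 symbols was taken, which gave 14 of the 31042 probe sets that are not Affymetrix controls (8 of 14217 genes with such a probe set), and no probe set with several symbols held one of them. A probe set is the group of short probes on the array that together report 1 transcript. The genes were selected on the log2 changes of Dio2 and Rxrg in these same arrays together with the family each belongs to, so the values of these genes in the comparison are given as a description. Their signals and log2 changes support nothing beyond themselves, and no p-value is given for them.

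The arrays measured RNA of GH4C1, a line from a rat pituitary tumour whose cells make growth hormone and prolactin, in 1 culture per array and 3 cultures per group. All cultures grew in Ham's F10 medium with horse and fetal calf serum, took up lentivirus at a multiplicity of infection of 5 over 16 h, and were harvested after 4 further days. Control cells received a vector with EGFP alone under the PGK promoter, and R271W cells received POU1F1(R271W), a dominant negative form, in the words of the series title, of the factor that drives growth hormone, prolactin and thyrotropin genes, followed by an IRES and EGFP under the same promoter. The cells kept their own Pou1f1 gene, the share of cells that took up the vector is not given in the sources used here, and 1 line stands for the cell type.

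Thyroid hormone leaves the thyroid mainly as thyroxine, a prohormone. DIO2 removes an outer-ring iodine and so makes triiodothyronine, the active form, DIO1 can do so too, and DIO3 removes an inner-ring iodine and inactivates the hormone. THRA and THRB are nuclear receptors for triiodothyronine that bind DNA best as partners of a retinoid X receptor, and in the pituitary DIO2 and THRB serve the feedback of the hormone on thyrotropin. RXRG is the retinoid X receptor with the most restricted expression and is found in pituitary thyrotrophs. GH-producing rat cell lines are a classic model of this hormone's action, since the rat growth hormone gene responds to it.

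The promoter windows of Dio2 and Rxrg are shown first, since the labelled condition is a mutant of a DNA-binding factor. Among the 8 genes, these had the tested probe sets that moved furthest. Sequences are RefSeq's, on the GRCr8 build, from 250 bases before to 50 after an annotated start, and all 8 genes have at least 1 such window (9 in all, Thra having a pair). Each was searched on both strands for the POU1F1 core ATGNATA, the cAMP response element TGACGTCA, the nuclear receptor hexamer AGGTCA and the TATA box TATAAA, and matches are in capitals. The Dio2 window lies at chr6:115410545-115410844 on the minus strand and the Rxrg window at chr13:82276237-82276536 on the plus strand.
Dio2: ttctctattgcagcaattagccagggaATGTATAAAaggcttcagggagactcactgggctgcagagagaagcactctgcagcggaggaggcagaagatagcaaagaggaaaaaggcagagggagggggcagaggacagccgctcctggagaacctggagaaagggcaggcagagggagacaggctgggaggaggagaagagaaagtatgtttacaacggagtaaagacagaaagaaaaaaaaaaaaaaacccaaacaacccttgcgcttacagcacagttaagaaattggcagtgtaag
Rxrg: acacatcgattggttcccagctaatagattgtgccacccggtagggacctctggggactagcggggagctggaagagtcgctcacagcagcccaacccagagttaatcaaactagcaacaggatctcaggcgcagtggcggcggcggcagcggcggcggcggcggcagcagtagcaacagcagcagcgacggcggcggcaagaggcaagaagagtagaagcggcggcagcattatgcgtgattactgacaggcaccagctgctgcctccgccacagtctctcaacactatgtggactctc
The Dio2 window held ATGTATA, a match to the POU1F1 core that began 223 bases before the start and overlapped a match to TATAAA. No other window of the 8 genes held the POU1F1 core, which was present in 9.88% of all 33469 RefSeq windows of this length. TATAAA was also in the Dio3 window, and in 14.2% of all windows. Neither AGGTCA (16.2% of all windows) nor TGACGTCA (1.83%) was found in any of the 9, and the Rxrg window had none of the 4 motifs. These are matches of letters, and binding was not measured. Bases outside the windows were not searched. In the Dio2 window the TATAAA match lies near the upstream end, so few bases upstream of it were covered.

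Among the 14 probe sets, 10 passed a filter on dim signals (a geometric mean signal over the 6 arrays of at least 11.2) and entered the test. Of these 10, 1 was called higher (Rxrg) and 1 lower (Dio2) by limma at an adjusted p under 0.05, where 15.8% of all 18625 tested probe sets were called (8.57% higher and 7.22% lower). That split was 1596 higher and 1344 lower, and median centring of the arrays turned it to 730 and 3132. The groups did not overlap for 3 of the 10, against 33.9% of all tested probe sets (19.7% with R271W higher and 14.2% with R271W lower). The median log2 change, R271W minus control, was 0.14 over the 10 and 0.07 over all. The 4 untested probe sets, 1 each of Dio1, Thra, Rxra and Rxrg, are described by their signals only.

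**Figure D1:**
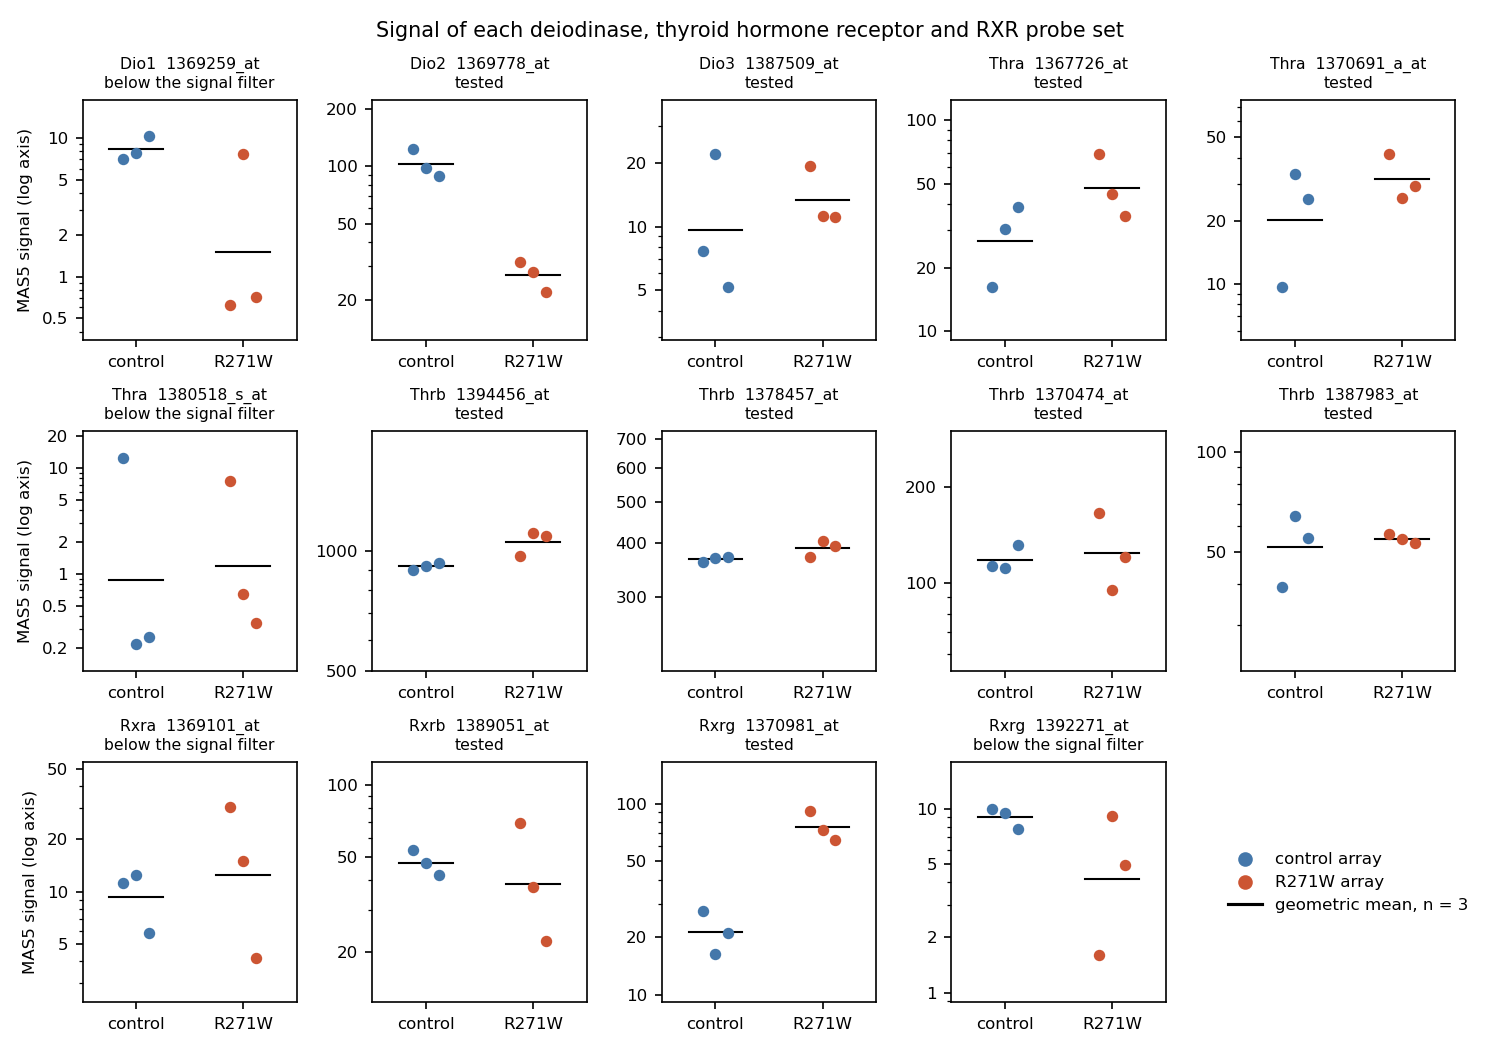
MAS5 signal (log axis, a separate scale in each panel) of the 14 probe sets on the 3 control and 3 R271W arrays, with points for arrays and lines for geometric means. Only Dio2 1369778_at, Thrb 1394456_at and Rxrg 1370981_at have groups that do not overlap.

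Dio2, the activating deiodinase, was lower in R271W cells. The MAS5 signals of its single probe set (1369778_at) were 123, 97.7 and 89.1 in control cells and 31.6, 28.0 and 22.0 in R271W cells. All 3 R271W arrays lay below all 3 controls, and the lowest control stood 1.49 log2 units above the highest R271W array, a gap larger than the SD within either group (0.24 and 0.27 log2 units). The means were 103 ± 17.5 (SD, n = 3) and 27.2 ± 4.85 (n = 3), a log2 change of -1.93 (SE 0.23, 95% confidence interval -2.41 to -1.44), which is 3.80-fold lower. Of the 18625 tested probe sets, 19 fell further. In a bulk sample, fewer cells with the transcript and less transcript per cell cannot be told apart.

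The other deiodinases gave no clear level. Dio1, which can activate or clear the hormone, read 7.03, 7.84 and 10.4 in controls and 0.622, 7.66 and 0.712 in R271W cells. Its groups overlapped because 1 R271W array sat among the controls, and all 6 values were below the filter level. Dio3, the inactivating enzyme, read 7.68, 22.0 and 5.20 in controls and 19.3, 11.3 and 11.1 in R271W cells. The single highest and lowest of these 6 arrays were both controls, and the log2 change of 0.49 had a confidence interval from -0.998 to 1.97. These signals set little bound on a change of Dio1 or Dio3.

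Thrb, the receptor of pituitary feedback, had 4 probe sets, and none passed the test. The probe set 1394456_at read 899, 917 and 935 in controls and 973, 1111 and 1090.4 in R271W cells. These groups did not overlap, by 0.06 log2 units between the nearest arrays, and the log2 change was 0.20 (interval 0.04 to 0.37). The probe set 1378457_at read 362, 368 and 372 in controls and 371, 405 and 394 in R271W cells, a log2 change of 0.08 (interval -0.10 to 0.27). Here the lowest R271W array lay just under the highest control.

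The remaining Thrb probe sets overlapped widely. The one named 1370474_at read 113, 111 and 131 in controls and 166, 94.9 and 121 in R271W cells, with a log2 change of 0.07 (interval -0.32 to 0.47). Its highest and lowest arrays were both R271W arrays. The one named 1387983_at read 39.2, 64.3 and 55.0 in controls and 56.5, 54.6 and 53.3 in R271W cells (0.08, interval -0.41 to 0.57), so its R271W arrays lay within the control range. The median signal of an array was 22.4 to 22.9 in controls and 25.5 to 26.9 in R271W cells. Median centring of the arrays, which moves every log2 change by -0.20, took the 4 values to 0.01, -0.11, -0.13 and -0.12, so 3 of the 4 turned negative there and 1394456_at stayed just above 0. The call of 1394456_at was gained under quantile normalization (log2 change 0.31) and without R271W replicate 1 (0.26).

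Thra, the other hormone receptor gene, had 3 dimmer probe sets. The first, 1367726_at, read 16.3, 30.5 and 38.8 in controls and 68.9, 44.7 and 35.0 in R271W cells, a log2 change of 0.83 (interval 0.06 to 1.60) that did not pass. The highest control lay above the lowest R271W array. The second, 1370691_a_at, read 9.69, 33.3 and 25.4 against 41.7, 25.8 and 29.2 (0.65, interval -0.32 to 1.61), again with overlap. Control replicate 1 gave the lowest signal and R271W replicate 1 the highest on both. The third, 1380518_s_at, was below the filter, at 12.4, 0.216 and 0.252 against 7.58, 0.642 and 0.345.

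Rxrg was higher in R271W cells on the brighter of its probe sets. The signals of 1370981_at were 27.4, 16.5 and 21.2 in controls and 91.3, 72.7 and 64.7 in R271W cells. Every R271W array lay above every control, with 1.24 log2 units between the nearest arrays and an SD of 0.36 and 0.25 log2 units within the groups. The means were 21.7 ± 5.45 and 76.2 ± 13.6 (SD, n = 3 each), a log2 change of 1.83 (SE 0.27, interval 1.24 to 2.41), or 3.55-fold higher, and 84 of 18625 probe sets rose further. The other probe set, 1392271_at, read 9.95, 9.50 and 7.72 in controls and 1.60, 9.14 and 4.94 in R271W cells. It was below the filter and its groups overlapped, and its log2 change of -1.11 has the opposite sign. Which Rxrg transcripts each probe set reports was not examined here.

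Rxra and Rxrb, the widely expressed retinoid X receptor genes, had 1 probe set each. Rxra read 11.2, 12.5 and 5.79 in controls and 30.4, 14.9 and 4.21 in R271W cells, with a geometric mean below the filter and with R271W arrays at both extremes. Rxrb read 53.3, 47.4 and 41.9 in controls and 69.2, 37.4 and 22.2 in R271W cells. Its highest and lowest arrays were R271W arrays, its log2 change was -0.29 (interval -1.04 to 0.45), and without R271W replicate 3 it was 0.10.

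**Figure D2:**
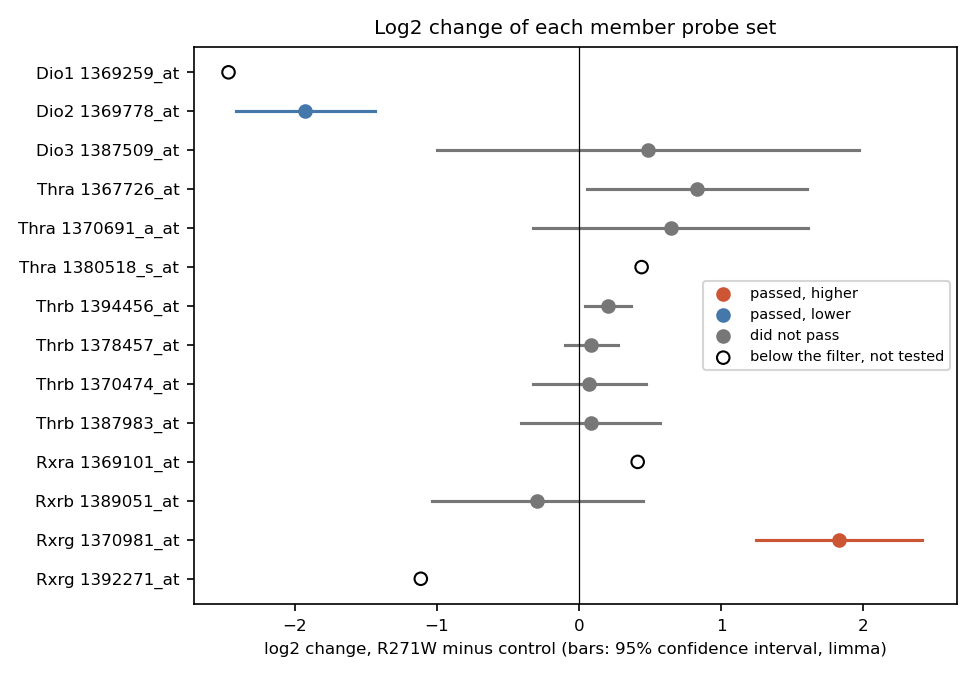
Log2 change, R271W minus control, of the 14 probe sets, with 95% confidence intervals from limma for the 10 that were tested and open circles for the 4 that were not. The intervals of Dio2 (-1.93), Rxrg 1370981_at (1.83), Thra 1367726_at (0.83) and Thrb 1394456_at (0.20) exclude 0. Of these, limma called only Dio2 and Rxrg, on whose changes the genes were selected. The Thrb probe sets lie between 0.07 and 0.20.

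The values of Dio2 and Rxrg moved little with the processing. Over 17 alternatives the log2 change of Dio2 ran from -2.12 to -1.78 and it was called in all 17. That of Rxrg 1370981_at ran from 1.63 to 2.01 and it was called in the 16 where it was tested. A filter at the 60th percentile left it untested. Both genes were selected on their changes in these same arrays, so their calls under any setting are description and not a test. On the same arrays the hybridisation spikes, RNAs added in equal amount to every sample, read 0.33 log2 units higher in R271W cells (394 ± 26.8 against 495 ± 56.8, n = 3 each). For beta-actin the signal at the 3' end over that at the 5' end, a sign of RNA quality, was 1.82 ± 0.0076 in controls and 1.96 ± 0.099 in R271W cells, and neither measure overlapped between groups. Poly-A spikes overlapped, but their signals of 18.1 to 25.6 lay near the median signal of an array, so this overlap says little. The GAPDH ratio also overlapped, and the part of all these measures in the results was not tested.

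**Figure D3:**
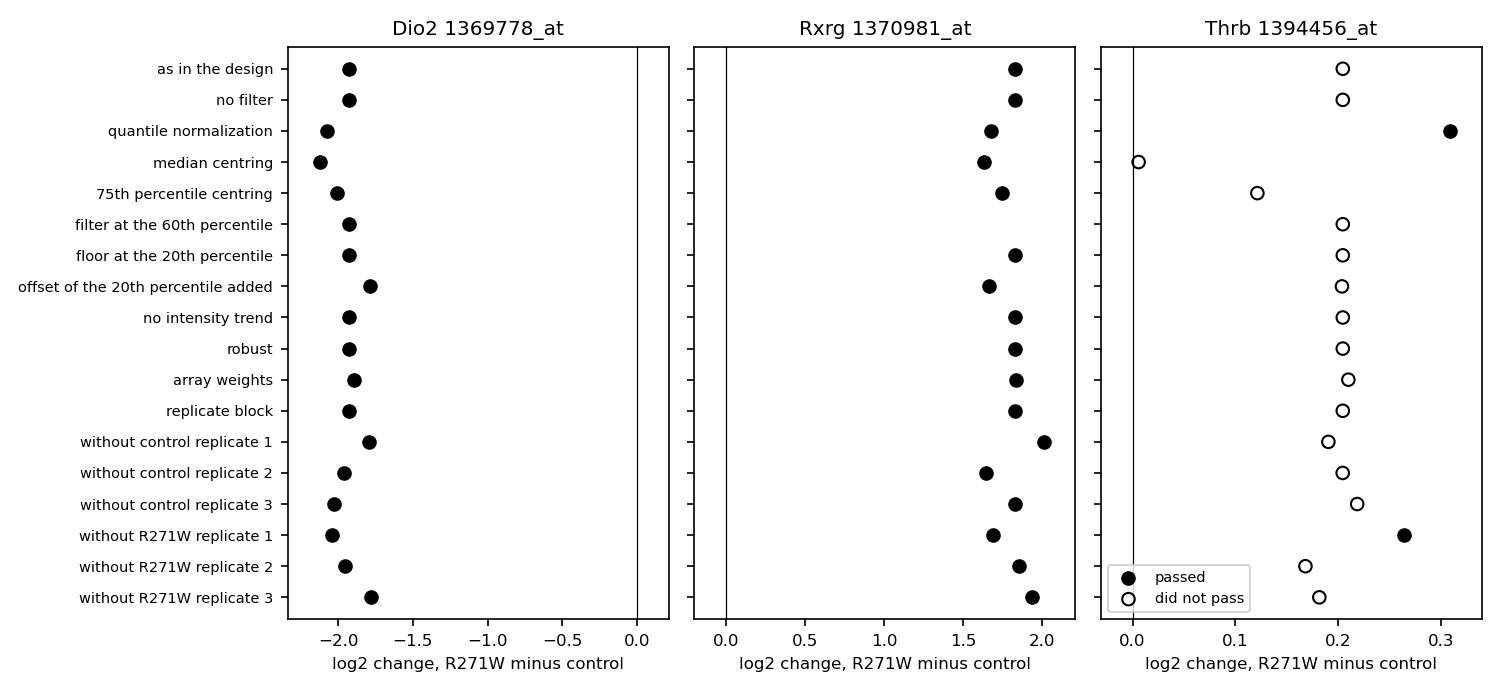
Log2 change, R271W minus control, of Dio2, Rxrg and the brightest Thrb probe set under the settings of the design and each alternative, with filled circles where limma called the probe set (adjusted p under 0.05) and no circle where it was not tested. Dio2 stays between -2.12 and -1.78 and Rxrg between 1.63 and 2.01, while Thrb runs from 0.01 to 0.31.

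The cell type and its neighbours were checked through markers. Gh1 (5588 to 7287), Prl (3006 to 4522) and Pou1f1 (1738 to 2399) were bright on all 6 arrays. Of the 7 somatolactotroph markers, which include these, 5 were tested, with 1 higher (Chgb) and 2 lower (Prl and Pou1f1) by limma. Ghrhr and Drd2, of the same list, were below the filter. Tshb, the thyrotroph hormone subunit, was below the filter (1.06 to 15.0). Of 4 thyrotroph markers (Tshb, Cga, Trhr and Gata2), 2 were tested and 0 passed by limma, with 1 (Trhr) at an unadjusted p under 0.05 and with summed signals of 1953 to 2171 in controls and 1755 to 1970 in R271W cells. Trhr alone read 1930 to 2105 in controls and 1723 to 1933 in R271W cells, so it made up nearly all of that sum. Of 6 stromal markers 1 was tested and passed. This was Dcn, whose fall took the summed signal from 2727 to 2894 in controls to 1195 to 1272 in R271W cells, while the other 5 were below the filter. Sox2, the only tested marker of the folliculostellate and progenitor list, fell by 0.43 on the log2 scale (adjusted p = 0.0196), with summed signals of that list at 239.7 to 258 in controls and 181 to 209 in R271W cells. Chgb, of the somatolactotroph list, rose by 0.46 (adjusted p = 0.00034). Of the corticotroph, gonadotroph, endothelial and leukocyte markers 3 were tested, and 0 passed by limma or had an unadjusted p under 0.05. The part of these genes in the results above was not tested.

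The profiles nearest to Dio2 and Rxrg were sought over all 6 arrays. Each log2 profile was centred on its own mean, and the root mean square difference from Dio2 or Rxrg was taken for 14076 tested probe sets with 1 established symbol. Nearest to Dio2 was Pdp2, a pyruvate dehydrogenase phosphatase gene, at 0.19 log2 units, with signals of 76.2 ± 6.25 in controls and 24.3 ± 2.45 in R271W cells (SD, n = 3 each). Igfbp3 (0.22), Deptor (0.22), one probe set of Tbl1x (0.23) and Mycn (0.24) followed. All 5 were high on every control and low on every R271W array, as the measure requires of a gene near Dio2. Nearest to Rxrg was Hspb6, a small heat shock protein gene, at 0.17, with signals of 97.1, 75.1 and 75.9 against 281, 279 and 249. Ccng2, a cyclin G gene, came next (0.18), then Zfp213 (0.22), Emc9 (0.23) and Parp4 (0.23). The difference between groups makes up most of each profile.

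**Figure D4:**
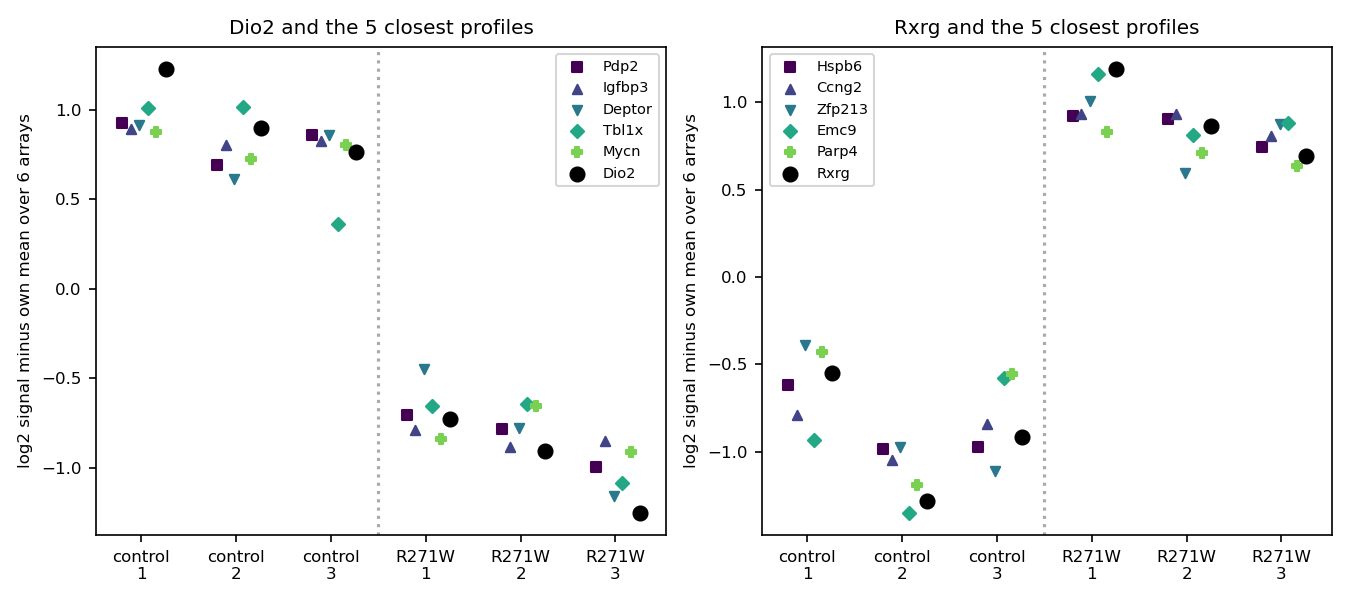
Log2 signal minus the probe set's own mean over the 6 arrays, for Dio2 (left, black) and Rxrg (right, black) and the 5 probe sets with the smallest root mean square difference from each, with columns for arrays and replicate numbers carrying no order. All 6 profiles on the left are above 0 in controls and below 0 in R271W cells, and those on the right are the reverse.

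The other genes of the pathway came from 10 lists with 159 genes besides the 8, of which 114 were tested, each by its brightest probe set. By limma, 8 were higher (7.02%) and 20 lower (17.5%), beside 9.87% and 8.98% of all 10143 genes tested in this way (18.9% in either direction). The median log2 change of the 114 was -0.08, against 0.06 for all genes. The counts depended on the settings: median centring gave 3 higher and 38 lower, and eBayes without its intensity trend 2 and 2. Of the 28 calls, 4 (Ep300, Shh, Rcan2 and Atp2a2) passed under all 17 alternatives, 15 ended without some single array, and 24 ended without the intensity trend. The higher count fell to 4 or 5 without control replicate 1 or 3 or R271W replicate 1 or 3. The lower count fell to between 10 and 13 without any control array or without R271W replicate 2.

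**Figure D5:**
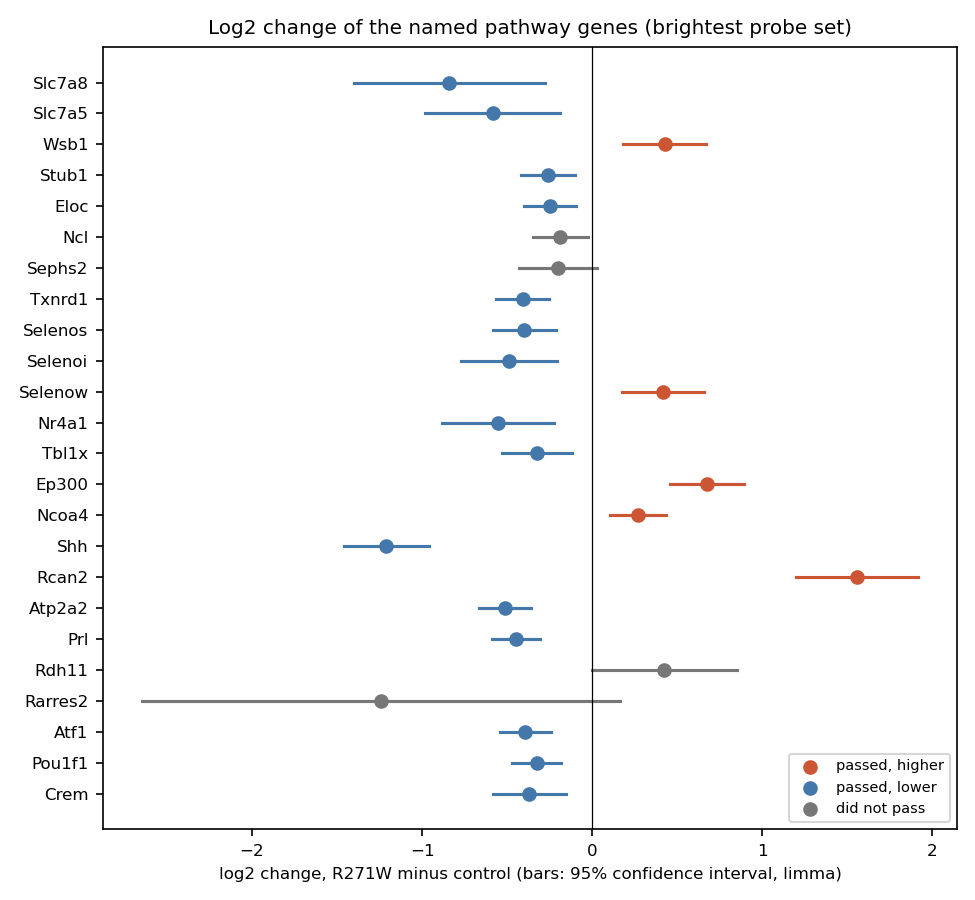
Log2 change, R271W minus control, of the named genes of the 10 pathway lists by their brightest probe set, with 95% confidence intervals from limma; genes named after their values were seen are not plotted. Of the genes plotted that passed, Rcan2 (1.56) and Shh (-1.21) lie furthest from 0, and the others lie between -0.84 (Slc7a8) and 0.67 (Ep300).

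Uptake comes first in the hormone's path through a cell. Of 14 transport and binding genes 5 were tested, and 2 fell and 0 rose. Slc7a8 and Slc7a5 encode amino acid carriers of the L system, which also move thyroid hormone. Slc7a8 fell from 64.2 ± 10.4 to 36.7 ± 11.5 (log2 -0.84, limma adjusted p = 0.0441) and Slc7a5 from 332 ± 37.4 to 228 ± 67.7 (-0.59, adjusted p = 0.0456). R271W replicate 2 had the lowest signal of both. Slc16a10 and Slco1c1, further carriers of the hormone, were below the filter. The call of Slc7a8 ended without any 1 control array and without R271W replicate 2 or 3 (adjusted p from 0.0506 to 0.154, log2 -0.98 to -0.65), and with no filter (0.0689). That of Slc7a5 ended without any 1 control array and without R271W replicate 2 (0.0556 to 0.142, log2 -0.68 to -0.31).

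The DIO2 protein is controlled by ubiquitin, and all 9 genes listed for its turnover were tested, with 1 higher and 2 lower. Wsb1, the substrate adaptor of a ubiquitin ligase for DIO2, read 137, 153 and 143 in controls and 198, 187 and 196 in R271W cells, a log2 rise of 0.43 (SE 0.11, adjusted p = 0.0205). Stub1, a chaperone-linked ubiquitin ligase gene, fell by 0.26 on the log2 scale (adjusted p = 0.0277), and Eloc, which encodes elongin C, by 0.25 (0.0312), with the dimmer Eloc probe set at 0.21 without passing. The call of Wsb1 ended without control replicate 1 or 3 or R271W replicate 1 (0.0565 to 0.0695, log2 0.39 to 0.42) and under median or 75th percentile centring (0.199 and 0.0575). The calls of Stub1 and Eloc ended without any 1 control array and without R271W replicate 1 or 2 (0.0541 to 0.106 and 0.067 to 0.117), and under quantile normalization (0.127 and 0.186), and that of Eloc with no filter too (0.0582).

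Deiodinases carry selenocysteine, which is inserted at a UGA codon by dedicated factors. Of 12 genes listed under selenoprotein synthesis 11 were tested, and 0 passed by limma, with 1 at an unadjusted p under 0.05. The untested gene was Selenbp1, which encodes a selenium-binding protein and was below the filter. Rpl30 read 12.6 ± 6.09 and 11.9 ± 5.51, near the filter level of 11.2, so little can be read for it. Among the tested genes, the smallest p-values were those of Ncl, a nucleolar RNA-binding protein gene (log2 -0.19, adjusted p = 0.112), and Sephs2, a selenophosphate synthetase gene (-0.20, 0.238). Of 19 other selenoprotein genes 17 were tested, with 2 higher and 3 lower. Txnrd1, a thioredoxin reductase gene, fell from 2163 ± 81.4 to 1632 ± 118 (log2 -0.41, adjusted p = 0.00185), and its other probe set fell by 0.46. Selenos, of the endoplasmic reticulum, fell by 0.40 (adjusted p = 0.00601) and Selenoi, a phospholipid synthesis enzyme gene, by 0.49 (0.022).

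Selenow rose by 0.42 on the log2 scale (adjusted p = 0.0224), and Selenop, which encodes the selenium carrier of plasma and is named after its value was seen, by 2.04 (0.0303). Selenop was dim, at 9.13, 17.5 and 3.90 in controls and 45.2, 47.6 and 20.1 in R271W cells, without overlap. Its control mean of 10.2 lay under the filter level of 11.2, so it entered the test only through its R271W arrays. The adjusted p of Selenop therefore gives no support for the direction of its change. Its other probe set was below the filter, with a log2 change of 0.35 and overlapping groups. The call of Selenoi ended without control replicate 1 or 3 or R271W replicate 1 or 2 (0.0686 to 0.0831). That of Selenow ended without control replicate 1 or 3 or R271W replicate 1 or 3 (0.0597 to 0.0858) and under median or 75th percentile centring (0.205 and 0.0679). That of Selenop ended without control replicate 1 or 3 or R271W replicate 1 or 2 (0.0555 to 0.13, log2 1.47 to 2.09) and with no filter (0.053).

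Retinoid X receptors also pair with other nuclear receptors, of which 14 were listed and 8 tested, with 0 higher and 1 lower. Nr4a1, an immediate early orphan receptor gene, fell from 185 ± 20.9 to 127 ± 23.2 (log2 -0.55, adjusted p = 0.0247), and its call ended without control replicate 2 or 3 or R271W replicate 1 (0.057 to 0.106). All 9 measured corepressor genes were tested, with 0 higher and 1 lower. The one that fell was Tbl1x, a subunit of the NCOR corepressor complex, by 0.33 on its brightest probe set (adjusted p = 0.0336) and by 1.59 and 0.60 on its dimmer ones, which also passed. The call of the brightest ended without control replicate 1 or 3 or R271W replicate 1 (0.0725 to 0.152) and under quantile normalization (0.114). Ncor1, the core of that complex, read 169 ± 19.9 and 178 ± 7.72 with overlap.

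Coactivators join receptors once hormone is bound. Of 15 tested genes listed as coactivators of nuclear receptors 2 rose and 0 fell. Whether the listed genes act with the receptors described here was not tested. Ep300, the acetyltransferase p300, read 442, 512 and 519 in controls and 683, 803 and 871 in R271W cells, without overlap (log2 0.67, SE 0.10, adjusted p = 0.000558). Ncoa4 rose from 1343 ± 67.4 to 1623 ± 125 (0.27, adjusted p = 0.0269). The Ncoa4 call ended under median centring (log2 0.07, adjusted p = 0.595), under 75th percentile centring (0.163), and without control replicate 1 or 3 or R271W replicate 1 or 3 (0.0594 to 0.109).

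Genes that textbooks give as responding to triiodothyronine in some tissue made up the longest list, with 23 of 30 tested, 3 higher and 8 lower. Rcan2, a calcineurin regulator gene, rose from 92.0, 61.6 and 64.6 in controls to 218, 187 and 229 in R271W cells (log2 1.56, SE 0.17, adjusted p = 4.29e-05), and its other probe set rose by 1.13. Shh, the hedgehog ligand gene, fell from 286, 276 and 246 to 112, 112 and 125 (log2 -1.21, adjusted p = 1.89e-05). Atp2a2, a calcium pump gene of the endoplasmic reticulum, fell from 1285 ± 70.1 to 900.4 ± 21.1 (-0.51, adjusted p = 0.000349). A further probe set of Atp2a2 fell by 0.50, and those of lower signal did not pass. Prl, the prolactin gene, fell by 0.45 (adjusted p = 0.00048).

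The other members called in that list are named after their values were seen. Fgf21 and Cpt1a, a hormone gene and a fatty acid import gene of the fasting response, rose by 0.48 and 0.31 on the log2 scale (adjusted p = 0.00406 and 0.0227). The lipogenic genes Me1 and Fasn fell by 0.35 and 0.37 (0.0107 and 0.00404), Atp1b1, a sodium pump subunit gene, by 0.44 (0.00185), Rasd2 by 0.45 (0.0168) and Idh3a by 0.38 (0.0237). The dimmer Rasd2 probe set read 0.21 without passing. The calls of Fgf21 and Cpt1a ended under median centring (0.0689 and 0.466), and that of Cpt1a under 75th percentile centring (0.122). Single arrays ended those of Cpt1a (control replicate 1 or 3 or R271W replicate 3, 0.0583 to 0.0911), Rasd2 (the same 3 arrays, 0.0532 to 0.0684) and Idh3a (any 1 control or R271W replicate 2 or 3, 0.0511 to 0.1).

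Gh1 and Klf9, of the same list, did not pass and are also named after their values were seen. Gh1, the growth hormone gene, had a log2 change of -0.03 (adjusted p = 0.853). Klf9, an early response gene of the hormone in many cells, read 554, 547 and 577 in controls and 380, 402 and 557 in R271W cells, a log2 change of -0.35 (adjusted p = 0.0724) that passed under 5 of 17 alternatives. R271W replicate 3 alone lay within the control range. A dimmer Klf9 probe set had a log2 change of -0.71 (adjusted p = 0.0554), also without passing, and its groups did not overlap. Members of the list respond in opposite directions in different tissues, so their count gives no direction of hormone action.

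Of 14 genes listed as possible upstream factors of Rxrg and Dio2, 11 were tested, with 0 higher and 3 lower. Whether any of them, Pou1f1 included, acts on either gene was not tested. Atf1, a CREB-family gene, fell from 1258 ± 54.6 to 957 ± 17.0 (log2 -0.39, adjusted p = 0.00185). Crem, whose products modulate cAMP responses, fell by 0.37 (adjusted p = 0.0216), and its call ended without control replicate 2 or 3 or R271W replicate 2 or 3 (0.0513 to 0.0981). Pou1f1 fell by 0.33 (adjusted p = 0.00486), and no source used here says whether its probe sets report the transduced form. Of 20 retinoic acid genes 7 were tested and 0 passed by limma, with 0 at an unadjusted p under 0.05. The smallest p-values were those of Rdh11, a retinol dehydrogenase gene (log2 0.42, adjusted p = 0.173), and Rarres2, the chemerin gene (-1.24, 0.23).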

How the data were processed

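RNA from 6 cultures, called biological replicates in the labels, was hybridised to 1 Affymetrix rat array each. The deposited intensity of each probe set is a linear MAS5 signal, and the submitters' processing notes name MAS5. No source used here gives its settings or detection calls. By the values, each array's mean after trimming 2% at each end was 100.0, which ties dim signals to bright ones.

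Log2 signals were tested with limma 3.58.1 in R 4.3.3 (group as the only term, intensity trend in eBayes, two-sided, Benjamini-Hochberg adjustment across 18625 probe sets) after a filter at the 40th percentile of mean log2 signal. Symbols came from the platform annotation, updated by Entrez ID through RefSeq; 20826 of 31042 probe sets had 1 symbol. The fit was run on simulated data with independent normal values and known added changes. That run checks the code and says nothing on whether the calls in these arrays are right. Figures used matplotlib 3.10.9.

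The members and lists were chosen with earlier results of these data known. Named in each pathway list were up to 4 genes past the threshold with the smallest p, or 2 where none passed, beside every member probe set and the 5 profiles nearest to Dio2 and Rxrg. Alternatives were 3 scalings, 2 filters, a floor or offset at 3.72, array weights, a replicate block, robust eBayes, eBayes with no trend, leaving out each array, and the brightest probe set per gene. The number of arrays limits precision.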

Additional observations from a re-analysis of the deposited data

How the results depend on the processing

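The calls of Dio2 (lower) and Rxrg (higher) held under every alternative that tested them, and counting 1 probe set per gene left 1 higher and 1 lower. The genes were selected on these changes in the same arrays, so the persistence of the calls describes the processing and is not a test. The count of higher probe sets among the 14 was 2 under quantile normalization, where the second was Thrb 1394456_at, 0 with a filter at the 60th percentile, which left Rxrg untested, and 1 to 2 when single arrays were left out. The lower count stayed at 1 throughout. Among values that did not pass, median centring turned 3 Thrb probe sets negative (1378457_at -0.11, 1370474_at -0.13, 1387983_at -0.12). The last also read -0.071 under quantile normalization, 75th percentile centring gave -0.0112 for 1370474_at and -0.0012 for 1387983_at, and leaving out single arrays gave -0.14 to 0.27 for 1370474_at, -0.12 to 0.24 for 1387983_at, -0.71 to 0.10 for Rxrb and -0.14 to 0.0555 for Gh1. The cause was not tested.

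Over all probe sets 1596 were higher and 1344 lower. Median centring gave 730 and 3132, eBayes without the trend 634 and 431, and leaving out single arrays 1000 to 1346 and 945 to 1327. For the 114 pathway genes (8 higher, 20 lower) the counts were 3 and 38 under median centring, 4 higher under 75th percentile centring, 2 and 2 without the trend, and 4 to 8 and 10 to 22 without single arrays. With the replicate number as a block they were 7 and 17, with 1 higher and 1 lower among the 14 and 1336 and 1143 over all, and Stub1 (adjusted p = 0.0636), Eloc (0.0723), Tbl1x (0.0521) and Ncoa4 (0.0677) were not called. Deviations of same-numbered arrays correlated at -0.0017, 0.01 and -0.02 across probe sets, and not every array correlated best with its own number, so the numbers gave no pairing. Signals near or under the filter level limit what can be read for Dio1, Dio3, Rxra and Thra.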
